A study of Mus musculus with 48 samples.

Results

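The data described here are the daily time course of liver RNA from germ-free (GF) male mice, 12 of the 48 liver RNA libraries of the series. The libraries were chosen by their labels and column names: every library of a GF male, with 2 at each of 6 zeitgeber times (ZT), every 4 h from ZT2 to ZT22. The mice were C57BL/6J, aged 15 to 16 weeks and fed ad libitum, and no engineered allele or drug is named for any group. GF mice are raised without living microbes. Libraries of 2 other groups with the same strain, age range, feeding and ZT served for comparison: 12 from conventionally raised (convR) males, which carry an ordinary microbiota, and 12 from GF females. Zeitgeber time counts the hours from lights on. The lighting schedule is not given in the sources used here, so ZT2, ZT6 and ZT10 are called the light phase and ZT14, ZT18 and ZT22 the dark phase by the usual convention. The labels number the libraries of a ZT 1 and 2 and do not say whether these were different mice. P-values here therefore reflect only the spread between libraries, which may be technical.

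In the circadian clock of liver cells, the protein of Arntl (BMAL1) pairs with CLOCK or NPAS2 and switches on genes through a DNA motif called the E-box. Their targets include the Per and Cry repressors, which shut the activators off, and the nuclear receptors REV-ERB alpha and beta (Nr1d1 and Nr1d2). The REV-ERB proteins compete with ROR receptors at ROR elements, as in the Arntl gene. The factors DBP, TEF and HLF activate genes through D-boxes, and NFIL3 represses them there. In liver this loop and the feeding rhythm set the daily timing of bile acid, glucose and lipid metabolism. Mice eat mostly in the dark.

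Total counts per GF male library ran from 29769441 to 51294708, with 38087 genes in the table. Levels are given as CPM, the counts of a gene per 1000000 counts of the library, for the libraries numbered 1 and 2 in that order. CPM carries no correction for gene length, so levels are compared within a gene and not between genes. 1 library stood apart from the rest. ZT6 replicate 2 had the lowest total and held 5.23% of its counts in remnants of ribosomal RNA, against 0.487 to 1.76% in the other 11, and correlated with its partner at r = 0.969 across genes, against 0.984 to 0.992 at the other ZT. The main counts are also given without it. Xist had 0 to 3 counts and the Y-linked Ddx3y 79.0 to 137 CPM in the 12 libraries, as the label male implies. Albumin (Alb), the defining hepatocyte product, was at 61326 to 90226 CPM.

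The promoters of 4 genes with a daily rhythm are printed because they hold the motifs named above or the heat shock element, a motif bound by heat shock factors, within the window from 250 bases before to 50 after a RefSeq transcription start (GRCm38.p6, 5′ to 3′ on the gene's own strand, motif letters in capitals). The motifs searched on both strands were CACGTG for the E-box, TTATGTAA or TTATGCAA for the D-box, TAGGTCA or TGGGTCA for the ROR element and, for the heat shock element, 3 GAA units in alternating orientation with 2 bases between them. Ciart (Gm129 in the count table), whose protein represses CLOCK and BMAL1, has 3 E-boxes that begin at positions -116, -58 and -44 from the start (chr3:95882179-95882478, minus strand). Per3 has 2 D-boxes at -205 and -158 (chr4:151044616-151044915, minus strand). The Arntl window holds a ROR element 31 bases after the start, inside the transcribed part (chr7:113207261-113207560, plus strand). The window of another RefSeq start of Arntl (chr7:113207215-113207514) holds none of the motifs searched. Hsph1, a chaperone gene, has an E-box 3 bases and a heat shock element 37 bases after the start, in its transcribed part (chr5:149636287-149636586, minus strand). From a second RefSeq start of Hsph1 the same E-box lies at -19, before the start, and the heat shock element 16 bases after it.
Ciart: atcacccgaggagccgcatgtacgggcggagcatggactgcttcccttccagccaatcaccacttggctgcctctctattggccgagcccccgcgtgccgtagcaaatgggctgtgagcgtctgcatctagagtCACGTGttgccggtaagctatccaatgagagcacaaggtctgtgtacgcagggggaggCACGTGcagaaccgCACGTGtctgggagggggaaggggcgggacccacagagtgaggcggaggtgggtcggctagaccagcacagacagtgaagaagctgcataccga
Per3: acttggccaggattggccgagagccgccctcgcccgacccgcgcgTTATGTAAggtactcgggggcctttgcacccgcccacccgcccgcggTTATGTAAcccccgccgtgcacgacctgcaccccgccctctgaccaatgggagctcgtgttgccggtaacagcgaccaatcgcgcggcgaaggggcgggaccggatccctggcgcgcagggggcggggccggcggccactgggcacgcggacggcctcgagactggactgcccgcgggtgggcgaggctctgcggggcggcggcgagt
Arntl: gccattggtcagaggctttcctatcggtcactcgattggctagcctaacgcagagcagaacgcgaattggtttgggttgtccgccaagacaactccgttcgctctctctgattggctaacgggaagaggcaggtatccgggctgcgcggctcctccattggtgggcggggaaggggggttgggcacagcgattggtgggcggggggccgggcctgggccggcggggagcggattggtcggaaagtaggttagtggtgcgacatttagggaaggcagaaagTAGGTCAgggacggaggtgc
Hsph1: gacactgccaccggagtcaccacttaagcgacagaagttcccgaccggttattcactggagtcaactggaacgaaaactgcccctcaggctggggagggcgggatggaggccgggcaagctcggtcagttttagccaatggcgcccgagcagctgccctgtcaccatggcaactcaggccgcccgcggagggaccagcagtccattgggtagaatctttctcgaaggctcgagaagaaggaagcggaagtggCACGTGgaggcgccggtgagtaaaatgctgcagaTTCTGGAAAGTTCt

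Promoters were found for 11347 of the 17099 genes tested. An E-box was present in 11.3% of these promoters and in 14.4% of the promoters of rhythmic genes as defined below, with the highest share (19.0%, 66 of 348) among genes peaking around ZT6. A D-box was present in 1.59% of all and in 5.62% (14 of 249) of genes peaking around ZT14, and a ROR element in 6.44% of all and 9.09% (31 of 341) of genes peaking around ZT22. The heat shock element occurred in 0.564% of all promoters and in 4 of 14 heat shock chaperone promoters. Of these 4, the windows of Hspd1 and Hspe1 overlap on opposite strands, so the same bases are counted for both genes. The sterol element TCACCCCAC occurred in 0.74% of all and in 1 of 18 promoters of cholesterol synthesis genes. These shares are a description of the letters in these windows and say nothing of binding.

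A 24 h rhythm was found for 2284 of 17099 genes in GF male liver, 13.4% of those tested (24 h cosine and sine terms tested jointly by edgeR's quasi-likelihood test, Benjamini-Hochberg adjusted p under 0.05). Amplitude is 0.5 times the distance from trough to peak of the fitted curve on the log2 scale, and its median over the rhythmic genes was 0.44, a 1.85-fold range from trough to peak. In all, 231 genes (1.35%) had an amplitude of at least 1. Fitted peaks fell in the light phase for 1189 genes (6.95%) and in the dark phase for 1095 (6.4%). In windows of 4 h around each ZT, 281 genes (1.64%) peaked around ZT2, 442 (2.58%) around ZT6, 466 (2.73%) around ZT10, 329 (1.92%) around ZT14, 304 (1.78%) around ZT18 and 462 (2.7%) around ZT22. ZT10 and ZT22 were the fullest windows. In bulk RNA, a change in the number of cells of a type and a change in RNA per cell cannot be told apart. Without ZT6 replicate 2 the count was 3098, with 394, 471, 723, 488, 380 and 642 genes in the windows from ZT2 to ZT22, so that the smallest window was then ZT18 and no longer ZT2. The count without ZT10 replicate 1 was 1496. An F test over the 6 ZT with no assumed shape called 1233 genes, and DESeq2 called 3435.

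**Figure D1:**
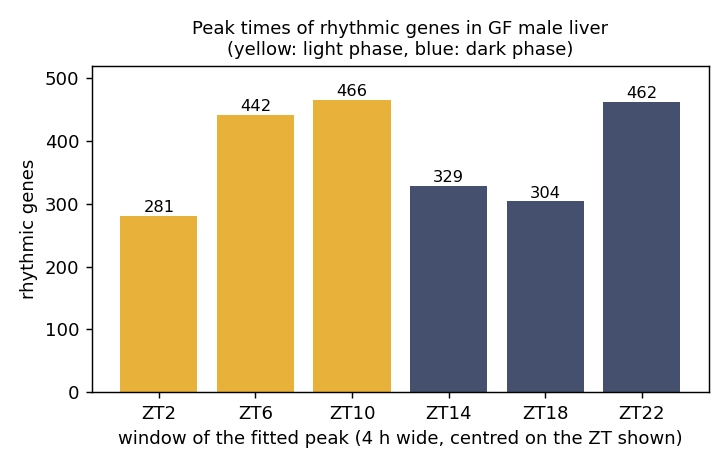
Number of genes with a 24 h rhythm in GF male liver by the 4 h window of the fitted peak (x axis, zeitgeber time; y axis, number of genes out of 17099 tested). The bars reach 466 at ZT10 and 462 at ZT22 and are lowest at ZT2 with 281.

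Clock genes were among those with the largest amplitudes. In the core clock list 13 of 15 genes were rhythmic, against 13.4% of all genes, with a median amplitude over the 15 of 1.46 against 0.21 over all genes tested. Without ZT6 replicate 2, 14 of 15 passed. The 4 output factors Dbp, Tef, Hlf and Nfil3 passed as well.

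The activators were high from late dark to ZT2 and low late in the light phase. Arntl (chr7:113207465-113314126, mm10) was at 34.3 and 43.4 CPM at ZT2, 2.49 and 3.09 at ZT6, 1.08 and 1.11 at ZT10, 9.35 and 12.8 at ZT14, 31.8 and 29.4 at ZT18 and 44.2 and 38.7 at ZT22. It was 37.7-fold higher at ZT22 than at ZT10 (amplitude 2.56 ± 0.27 log2, peak at ZT 21.3 ± 0.397 h, adjusted p = 0.000661). Npas2 was at 5.20 and 7.41 CPM at ZT2, 0.422 and 0.403 at ZT6, 0.217 and 0.114 at ZT10, 0.0469 and 0.115 at ZT14, 0.735 and 0.390 at ZT18 and 6.50 and 6.26 at ZT22. Both of its libraries at ZT2 and at ZT22 lay above all 8 others, and its amplitude was the largest of the list (amplitude 3.57 ± 0.26 log2, peak at ZT 23.9 ± 0.216 h, adjusted p = 3.48e-06). Clock, which encodes the constant partner of BMAL1, varied less (105 and 88.3 CPM at ZT2, 53.9 and 31.2 at ZT6, 37.3 and 34.4 at ZT10, 63.6 and 65.6 at ZT14, 94.0 and 82.2 at ZT18 and 97.1 and 95.7 at ZT22, amplitude 0.78 ± 0.10 log2, peak at ZT 21.2 ± 0.495 h, adjusted p = 0.00118). All 3 fitted peaks thus lay late in the dark phase, close together for Clock and Arntl (ZT 21.2 and ZT 21.3) and later for Npas2 (ZT 23.9).

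The REV-ERB genes had fitted peaks in the light phase, and the activators in the dark, though Nr1d1 and Arntl were both high at ZT2. Nr1d1 (chr11:98767932-98775333) was at 27.5 and 33.4 CPM at ZT2, 54.1 and 28.8 at ZT6, 22.5 and 28.7 at ZT10, 3.84 and 3.55 at ZT14, 0.490 and 0.877 at ZT18 and 1.92 and 1.14 at ZT22. All 6 light libraries lay above all 6 dark libraries, and the mean at ZT6 was 60.6 times that at ZT18 (amplitude 3.09 ± 0.23 log2, peak at ZT 6.22 ± 0.263 h, adjusted p = 2.22e-05). Nr1d2 followed later and with a smaller amplitude (53.5 and 57.8 CPM at ZT2, 151 and 89.3 at ZT6, 152 and 164 at ZT10, 86.5 and 73.4 at ZT14, 31.1 and 30.8 at ZT18 and 27.4 and 16.2 at ZT22, amplitude 1.40 ± 0.10 log2, peak at ZT 8.94 ± 0.273 h, adjusted p = 1.44e-05). Rora, which encodes an activating ROR receptor, did not pass (amplitude 0.15, adjusted p = 0.615).

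Among the E-box targets that repress the loop, Gm129 (Ciart) had the largest fold between ZT, 104. Its libraries were at 0.257 and 0.270 CPM at ZT2, 5.93 and 7.42 at ZT6, 27.9 and 27.0 at ZT10, 16.0 and 12.3 at ZT14, 1.20 and 2.24 at ZT18 and 0.250 and 0.596 at ZT22, and the peak lay at ZT 11.04 (amplitude 3.37 ± 0.21 log2, peak at ZT 11.04 ± 0.203 h, adjusted p = 3.48e-06). Its promoter is the one with 3 E-boxes printed above. Per3, with 2 D-boxes, was at 3.72 and 6.19 CPM at ZT2, 42.8 and 34.4 at ZT6, 80.8 and 75.5 at ZT10, 31.9 and 41.1 at ZT14, 23.2 and 24.8 at ZT18 and 8.0 and 5.09 at ZT22 (amplitude 1.87 ± 0.21 log2, peak at ZT 11.3 ± 0.418 h, adjusted p = 0.00049). Per2 stayed high longer, at 8.49 and 10.9 CPM at ZT2, 20.2 and 23.9 at ZT6, 50.4 and 41.1 at ZT10, 62.5 and 64.4 at ZT14, 54.6 and 66.0 at ZT18 and 9.85 and 17.7 at ZT22 (amplitude 1.46 ± 0.14 log2, peak at ZT 13.9 ± 0.367 h, adjusted p = 0.000148). Per1 peaked between them (amplitude 1.36, peak at ZT 12.4, adjusted p = 0.0191) and did not pass without ZT10 replicate 2 (adjusted p = 0.0516). Bhlhe41 (DEC2), a repressor at E-boxes, was at 0.770 and 0.833 CPM at ZT2, 7.22 and 16.5 at ZT6, 8.59 and 8.36 at ZT10, 1.43 and 1.39 at ZT14, 0.557 and 0.526 at ZT18 and 0.70 and 1.07 at ZT22 (amplitude 2.31 ± 0.30 log2, peak at ZT 7.89 ± 0.459 h, adjusted p = 0.000409). Its paralog Bhlhe40 did not pass (adjusted p = 0.129).

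Cry1, the late repressor, was at 18.8 and 19.8 CPM at ZT2, 4.53 and 7.42 at ZT6, 10.7 and 7.79 at ZT10, 32.6 and 36.2 at ZT14, 50.4 and 50.1 at ZT18 and 57.9 and 44.0 at ZT22. All dark libraries lay above all light libraries (amplitude 1.68 ± 0.12 log2, peak at ZT 19.1 ± 0.271 h, adjusted p = 1.88e-05). Cry2 varied little (amplitude 0.39, peak at ZT 10.6, adjusted p = 0.0392) and did not pass without 7 of the 12 libraries in turn (adjusted p = 0.0533 to 0.137). The order of fitted peaks in the repressor arm was thus Nr1d1, Bhlhe41, Nr1d2, Cry2, Gm129, Per3, Per1, Per2 and Cry1. The peaks of the neighbours Cry2 and Gm129, and of Gm129 and Per3, differed by less than the SE of the difference.

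Dbp (chr7:45705088-45710203) was at 7.17 and 7.03 CPM at ZT2, 149 and 179 at ZT6, 177 and 184 at ZT10, 32.7 and 24.0 at ZT14, 4.66 and 4.99 at ZT18 and 2.85 and 2.04 at ZT22. The mean at ZT10 was 73.8 times that at ZT22 (amplitude 3.38 ± 0.19 log2, peak at ZT 8.91 ± 0.203 h, adjusted p = 3.48e-06). Tef peaked later and more flatly (53.8 and 51.1 CPM at ZT2, 247 and 191 at ZT6, 327 and 321 at ZT10, 201 and 203 at ZT14, 130.1 and 130.4 at ZT18 and 81.8 and 62.6 at ZT22, amplitude 1.20 ± 0.13 log2, peak at ZT 11.1 ± 0.430 h, adjusted p = 0.000405). Hlf varied least of the family (amplitude 0.64, peak at ZT 13.5, adjusted p = 0.00341). Nfil3, the repressor at the same motif, was opposite in phase at 40.1 and 32.8 CPM at ZT2, 11.7 and 5.74 at ZT6, 7.53 and 9.59 at ZT10, 13.9 and 19.1 at ZT14, 30.4 and 29.2 at ZT18 and 49.6 and 33.9 at ZT22 (amplitude 1.27 ± 0.15 log2, peak at ZT 21.4 ± 0.434 h, adjusted p = 0.000452).

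**Figure D2:**
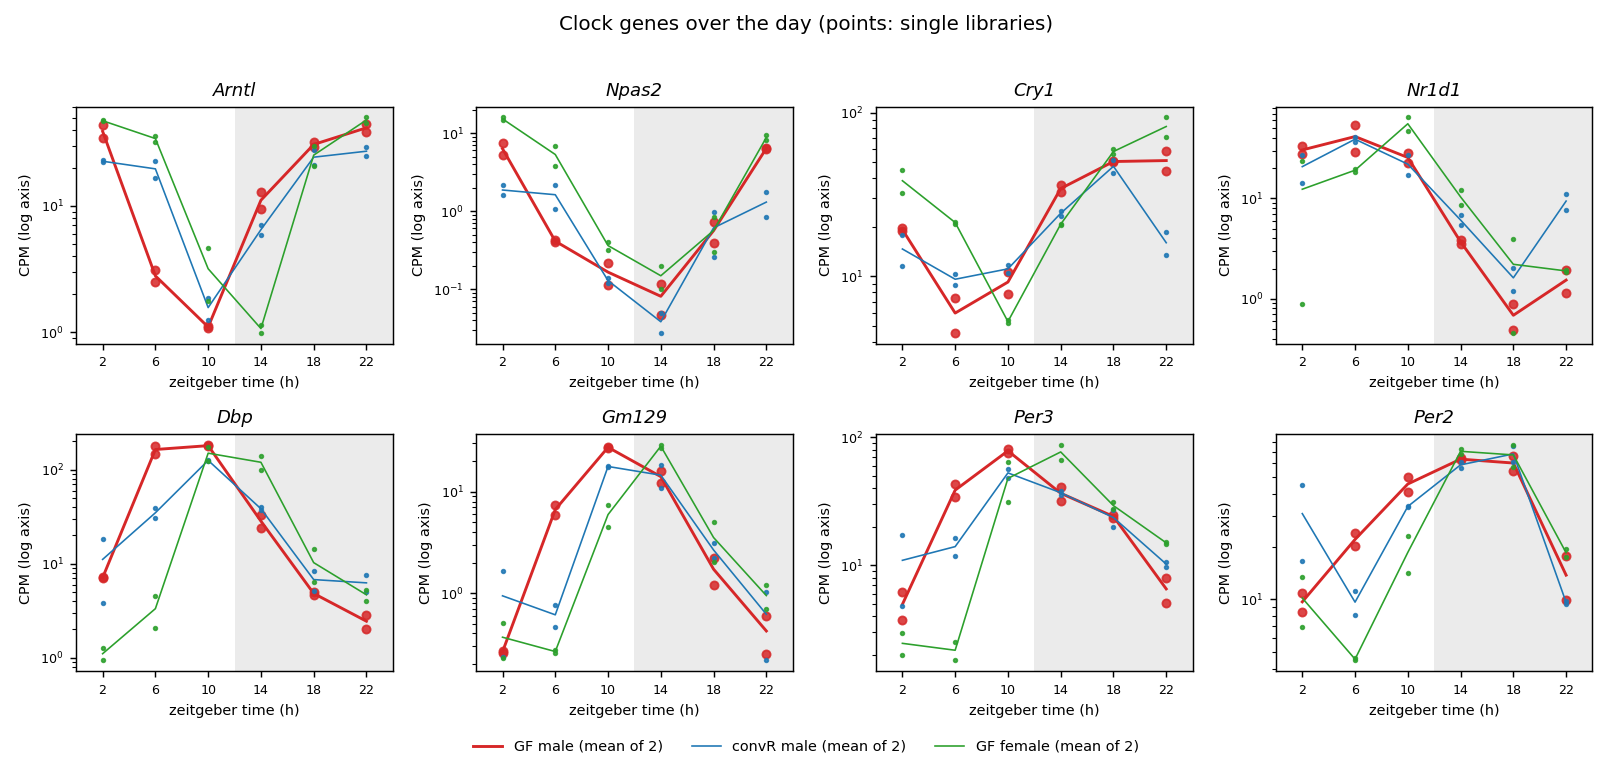
Levels of 8 clock genes (CPM, log axis) against zeitgeber time (h, grey for the dark phase) in GF males (red), convR males (blue) and GF females (green). Points are single libraries, lines join the means of 2 libraries. In GF males Arntl and Npas2 peak between ZT 21.3 and ZT 23.9, Nr1d1 at ZT 6.22 and Dbp at ZT 8.91.

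Outside the clock, the genes with the largest amplitudes in each window covered several functions. Around ZT2 these were Aqp8, a water channel (8.39-fold between ZT, amplitude 1.41 ± 0.25 log2, peak at ZT 0.137 ± 0.677 h, adjusted p = 0.0142), Fam198a (amplitude 1.25, peak at ZT 0.903, adjusted p = 0.00859), Fst, which encodes the activin-binding follistatin (amplitude 1.14, peak at ZT 2.31, adjusted p = 0.0121), and Gas7. Fst rested on ZT2 replicate 2 at 14.8 CPM, and did not pass without ZT2 replicate 2 (adjusted p = 0.0557). Gas7 was at 15.2 and 16.0 CPM at ZT2, 11.1 and 11.9 at ZT6, 8.11 and 7.93 at ZT10, 3.33 and 3.03 at ZT14, 7.40 and 6.0 at ZT18 and 14.3 and 11.6 at ZT22 (amplitude 0.95 ± 0.11 log2, peak at ZT 2.0 ± 0.434 h, adjusted p = 0.000435), with close replicates at every ZT.

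Around ZT6 the leaders beside Nr1d1 and Bhlhe41 were Trib3 and Clec2h. Trib3, a pseudokinase induced by ATF4, was at 4.30 and 7.05 CPM at ZT2, 17.9 and 16.5 at ZT6, 9.80 and 9.76 at ZT10, 2.06 and 1.47 at ZT14, 1.43 and 1.15 at ZT18 and 4.65 and 2.48 at ZT22 (amplitude 1.74 ± 0.19 log2, peak at ZT 5.88 ± 0.402 h, adjusted p = 0.000202). Clec2h, a C-type lectin-like gene, was at 14.2 and 13.8 CPM at ZT2, 25.5 and 22.9 at ZT6, 27.7 and 18.6 at ZT10, 6.30 and 6.61 at ZT14, 2.70 and 3.35 at ZT18 and 9.60 and 8.25 at ZT22 (amplitude 1.35 ± 0.14 log2, peak at ZT 6.20 ± 0.397 h, adjusted p = 0.000239). Around ZT10, Rgs16, a regulator of G protein signalling, reached an amplitude near that of Dbp, at 4.24 and 24.95 CPM at ZT2, 149.8 and 115 at ZT6, 96.96 and 111 at ZT10, 45.2 and 9.30 at ZT14, 3.63 and 1.48 at ZT18 and 2.62 and 0.820 at ZT22 (amplitude 3.34 ± 0.33 log2, peak at ZT 8.41 ± 0.358 h, adjusted p = 0.000231). Its replicates differed several-fold at ZT2, ZT14 and ZT22. Gpcpd1, which cleaves glycerophosphocholine, was at 102 and 81.6 CPM at ZT2, 327 and 244 at ZT6, 695 and 606 at ZT10, 565 and 322 at ZT14, 56.6 and 46.7 at ZT18 and 61.6 and 64.0 at ZT22 (amplitude 1.86 ± 0.17 log2, peak at ZT 10.1 ± 0.354 h, adjusted p = 9.79e-05).

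Around ZT14 the 4 leaders were Usp2, Mfsd2a, Cyp7a1 and Ccrn4l. Usp2, a deubiquitinase, was at 1.20 and 0.901 CPM at ZT2, 22.6 and 10.9 at ZT6, 48.0 and 58.5 at ZT10, 56.9 and 50.2 at ZT14, 14.8 and 20.2 at ZT18 and 7.75 and 7.78 at ZT22 (amplitude 2.17 ± 0.28 log2, peak at ZT 12.7 ± 0.486 h, adjusted p = 0.00139). Mfsd2a, a carrier of lysophosphatidylcholine, was at 4.09 and 1.91 CPM at ZT2, 19.3 and 6.21 at ZT6, 32.3 and 51.0 at ZT10, 73.9 and 101 at ZT14, 14.4 and 18.7 at ZT18 and 5.50 and 13.2 at ZT22 (amplitude 2.09 ± 0.25 log2, peak at ZT 13.2 ± 0.451 h, adjusted p = 0.000483). Ccrn4l encodes Nocturnin (20.3-fold between ZT14 and ZT2, amplitude 1.99 ± 0.20 log2, peak at ZT 13.3 ± 0.376 h, adjusted p = 0.000148). Around ZT18, Tsku, which encodes the secreted protein tsukushi, was at 17.4 and 12.5 CPM at ZT2, 6.06 and 6.92 at ZT6, 72.0 and 55.0 at ZT10, 202 and 201 at ZT14, 141 and 164 at ZT18 and 54.6 and 93.0 at ZT22 (amplitude 2.39 ± 0.19 log2, peak at ZT 16.3 ± 0.298 h, adjusted p = 5.54e-05). Cdkn1a, the cell cycle inhibitor p21, was at 1.39 and 1.26 CPM at ZT2, 0.555 and 0.336 at ZT6, 0.499 and 0.428 at ZT10, 5.25 and 4.30 at ZT14, 1.76 and 2.05 at ZT18 and 5.80 and 4.70 at ZT22. It was high at ZT14 and at ZT22 and lower at ZT18, a course that a single 24 h curve does not follow closely (amplitude 1.79 ± 0.33 log2, peak at ZT 18.7 ± 0.676 h, adjusted p = 0.0161). Around ZT22, Tubb2a, a beta-tubulin, was at 128 and 152 CPM at ZT2, 13.9 and 28.6 at ZT6, 6.31 and 8.22 at ZT10, 18 and 29.3 at ZT14, 101 and 121 at ZT18 and 162 and 143 at ZT22 (amplitude 2.32 ± 0.17 log2, peak at ZT 22.0 ± 0.285 h, adjusted p = 3.93e-05), and Dhrs9, a short-chain dehydrogenase, varied 12.3-fold (amplitude 1.92 ± 0.18 log2, peak at ZT 22.5 ± 0.344 h, adjusted p = 0.000122). Their lowest levels were at ZT10, as for Arntl.

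Heat shock chaperones, which fold proteins and are induced by heat shock factors, peaked together in the dark. Of 18 genes, 13 were rhythmic against 13.4% of all genes, all with a fitted peak between ZT 14.6 and ZT 21.2. Their median amplitude over the 18 was 0.52, against 0.21 over all genes tested. Hsph1, whose promoter is printed above, was at 41.2 and 28.7 CPM at ZT2, 12.7 and 23.1 at ZT6, 20.3 and 19.4 at ZT10, 58.9 and 56.9 at ZT14, 70.2 and 57.2 at ZT18 and 37.9 and 27.0 at ZT22 (amplitude 0.89 ± 0.16 log2, peak at ZT 18.02 ± 0.694 h, adjusted p = 0.00766). Hsp90aa1, the inducible HSP90, was at 142 and 109 CPM at ZT2, 84.5 and 90.3 at ZT6, 62.1 and 63.3 at ZT10, 162 and 149.6 at ZT14, 273 and 224 at ZT18 and 208 and 110.1 at ZT22 (amplitude 0.86 ± 0.13 log2, peak at ZT 19.3 ± 0.585 h, adjusted p = 0.00269). Hspa8, the constitutive HSP70, was at 776 and 552 CPM at ZT2, 568 and 434 at ZT6, 636 and 565 at ZT10, 1336 and 1375 at ZT14, 1228 and 1173 at ZT18 and 363 and 597 at ZT22. It was high at ZT14 and ZT18 only (amplitude 0.69 ± 0.16 log2, peak at ZT 15.9 ± 0.858 h, adjusted p = 0.0169) and did not pass without ZT14 replicate 2 (adjusted p = 0.0512). The inducible Hspa1a and Hspa1b reached their highest values at ZT14 (18.6 and 32.5 CPM for Hspa1b, against 2.73 and 3.36 at ZT6). These copies are nearly identical, so their reads are uncertain between them. Hspa1a passed (amplitude 1.56, peak at ZT 14.6, adjusted p = 0.0186) but not without ZT14 replicate 1 or ZT14 replicate 2 (adjusted p = 0.0514 to 0.0843), and Hspa1b passed (amplitude 1.25, peak at ZT 15.7, adjusted p = 0.0251) but not without ZT6 replicate 1, ZT14 replicate 1 or ZT14 replicate 2 (adjusted p = 0.05005 to 0.0723). Without ZT6 replicate 2 the count was 14 of 18, all in the dark. Of the 13 rhythmic genes 0 were also rhythmic in convR males and 6 in GF females. The difference in course passed for 0 of 18 against either group (2 and 1 at an unadjusted p under 0.05, 0 and 0 by DESeq2). Over all genes tested, 1967 of 17550 against convR males and 1082 of 17310 against GF females were at an unadjusted p under 0.05.

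The fitted peaks of cholesterol synthesis genes formed a narrower cluster late in the dark. Of 26 genes 11 were rhythmic, against 13.4% of all genes. For 10 of them the fitted peak lay around ZT22, and for none in the light. Their median amplitude over the 26 was 0.46. The summed level of the list was 8248 and 9253 CPM at ZT18, 6875 and 6417 at ZT22 and 7049 and 8273 at ZT2. Levels at ZT22 were thus below those at ZT18 and ZT2, a course that a single 24 h curve does not follow closely. Hmgcs1, which makes the precursor of mevalonate, was at 1176 and 1252 CPM at ZT2, 918 and 520.4 at ZT6, 326 and 194 at ZT10, 313 and 454 at ZT14, 1097 and 1143 at ZT18 and 1020.2 and 797 at ZT22 (amplitude 1.06 ± 0.18 log2, peak at ZT 22.9 ± 0.638 h, adjusted p = 0.00828). Its low values were at ZT10 and ZT14. Mvd, the mevalonate diphosphate decarboxylase, was at 55.7 and 61.8 CPM at ZT2, 26.2 and 21.3 at ZT6, 19.5 and 7.99 at ZT10, 14.9 and 29.2 at ZT14, 71.4 and 82.4 at ZT18 and 34.1 and 41.4 at ZT22 (amplitude 1.13 ± 0.22 log2, peak at ZT 21.5 ± 0.734 h, adjusted p = 0.0174) and did not pass without ZT10 replicate 2 (adjusted p = 0.05003). Insig1, which retains the sterol factors in the endoplasmic reticulum, passed with a peak at ZT 21.0, while Srebf2, which encodes SREBP2, did not pass (adjusted p = 0.108). Without ZT6 replicate 2, 14 of 26 passed, all with a fitted peak in the dark.

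Bile acid synthesis genes were spread over the day, with 8 of 13 rhythmic, against 13.4% of all genes tested. Cyp7a1 (chr4:6265612-6275633), which catalyses the limiting first step from cholesterol to bile acids, was at 52.5 and 13.5 CPM at ZT2, 121 and 95.7 at ZT6, 336 and 252 at ZT10, 565 and 852 at ZT14, 473 and 461 at ZT18 and 107 and 108 at ZT22. Levels at ZT14 and ZT18 exceeded those of all other libraries, and the mean at ZT14 was 21.5 times that at ZT2 (amplitude 2.07 ± 0.19 log2, peak at ZT 14.4 ± 0.352 h, adjusted p = 0.000126). Nr0b2 (SHP), which represses Cyp7a1 in the known feedback, was at 49.4 and 76.7 CPM at ZT2, 20.9 and 19.0 at ZT6, 13.4 and 21.7 at ZT10, 12.3 and 15.6 at ZT14, 33.2 and 18.8 at ZT18 and 26.9 and 71.1 at ZT22 and peaked near the Cyp7a1 trough (amplitude 1.06 ± 0.18 log2, peak at ZT 23.9 ± 0.640 h, adjusted p = 0.00391). Hsd3b7, an enzyme of the same pathway, peaked early in the light (amplitude 0.56 ± 0.07 log2, peak at ZT 2.28 ± 0.484 h, adjusted p = 0.000757). Cyp8b1, which sets the cholic acid share, did not pass (amplitude 0.13, adjusted p = 0.897), with replicates from 75.2 to 299 CPM at ZT2.

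Genes of glucose handling peaked in sequence. Of 18 genes, 10 were rhythmic, against 13.4% of all genes tested. Slc2a2, the glucose transporter GLUT2, peaked at ZT 10.7 (amplitude 0.39 ± 0.07, adjusted p = 0.00560). Gys2, the liver glycogen synthase, was at 108 and 128 CPM at ZT2, 377 and 279 at ZT6, 613 and 514 at ZT10, 458 and 531 at ZT14, 260.3 and 388 at ZT18 and 154 and 109 at ZT22 (amplitude 1.20 ± 0.11 log2, peak at ZT 12.1 ± 0.358 h, adjusted p = 0.000128). Ppp1r3b, which brings a phosphatase to glycogen, was at 198 and 338 CPM at ZT2, 53.6 and 103 at ZT6, 96.0 and 106 at ZT10, 632 and 583 at ZT14, 660.3 and 703 at ZT18 and 357 and 549.9 at ZT22 (amplitude 1.66 ± 0.20 log2, peak at ZT 18.6 ± 0.457 h, adjusted p = 0.000987). All of its dark libraries lay above all light libraries. Pdk4, which blocks pyruvate oxidation, was at 17.3 and 16.5 CPM at ZT2, 3.09 and 1.24 at ZT6, 2.30 and 3.08 at ZT10, 3.96 and 7.94 at ZT14, 26.5 and 24.1 at ZT18 and 20.2 and 16.2 at ZT22 (amplitude 1.89 ± 0.21 log2, peak at ZT 20.9 ± 0.416 h, adjusted p = 0.000475). Irs2, the insulin receptor substrate, was the only one of the 10 to peak around ZT2 (peak at ZT 3.13, amplitude 0.84 ± 0.16, adjusted p = 0.0140) and did not pass without ZT14 replicate 1 or ZT14 replicate 2 (adjusted p = 0.0509 to 0.0565). Without ZT6 replicate 2, 9 of 18 passed.

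In lipogenesis 9 of 19 genes were rhythmic, against 13.4% of all genes tested, and 8 of the 9 had a peak in the dark. Insig2, which retains SREBP in the endoplasmic reticulum, was at 257 and 302 CPM at ZT2, 84.7 and 96.6 at ZT6, 45.4 and 47.4 at ZT10, 101 and 91.1 at ZT14, 160.5 and 127 at ZT18 and 284 and 246 at ZT22 (amplitude 1.23 ± 0.12 log2, peak at ZT 22.7 ± 0.364 h, adjusted p = 0.000122). Elovl3, a fatty acid elongase, varied 13.1-fold with a peak at ZT 22.6 (amplitude 1.87 ± 0.27, adjusted p = 0.00215). Lpin1, a phosphatidate phosphatase, was high at ZT14 alone (1180.4 and 617 CPM, against 38.6 to 173 in the other 10 libraries) and did not pass without ZT14 replicate 1 (adjusted p = 0.0627). Thrsp, a regulator of fat synthesis, was at 77.9 and 423 CPM at ZT2, 84.5 and 302 at ZT6, 222 and 176 at ZT10, 1079 and 941 at ZT14, 709 and 1103 at ZT18 and 260.1 and 303 at ZT22 (amplitude 1.27, peak at ZT 16.6, adjusted p = 0.0229). Its replicates at ZT2 differed several-fold, and it did not pass without ZT14 replicate 2 or ZT18 replicate 2 (adjusted p = 0.0521 to 0.0616). Of the 25 genes of PPAR alpha and fatty acid oxidation 7 passed, among them Ppara itself (amplitude 0.70 ± 0.08 log2, peak at ZT 10.5 ± 0.448 h, adjusted p = 0.000361) and Cpt1a, the gate of mitochondrial fat oxidation (amplitude 0.74 ± 0.10 log2, peak at ZT 11.2 ± 0.526 h, adjusted p = 0.00105). These 2 peaked late in the light, and the other 5 in the dark. Of those, Acot1, a thioesterase, peaked at ZT 17.3 and Cpt2 at ZT 16.8.

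Xenobiotic metabolism gave 8 of 25 rhythmic genes, against 13.4% of all genes tested. Por, the electron donor of all microsomal cytochromes P450, was at 136 and 150.2 CPM at ZT2, 355 and 309 at ZT6, 534 and 625 at ZT10, 837 and 919 at ZT14, 359 and 379.6 at ZT18 and 182 and 243 at ZT22 (amplitude 1.21 ± 0.09 log2, peak at ZT 12.9 ± 0.294 h, adjusted p = 2.06e-05). Alas1, which makes heme for them, peaked at ZT 12.6 (amplitude 1.58 ± 0.20, adjusted p = 0.000749), and Cyp2a5, which has close paralogs, at ZT 13.0 (amplitude 1.33 ± 0.15, adjusted p = 0.000464). The 3 genes shared the ZT14 window. The carboxylesterase Ces1d peaked later (amplitude 0.80 ± 0.07 log2, peak at ZT 17.5 ± 0.344 h, adjusted p = 7.27e-05). Glucocorticoid targets, which respond to corticosterone, gave 5 of 11 (4 without ZT6 replicate 2). Of the 5, Tat did not pass without 10 of the 12 libraries in turn, Mt1 without 7, and Per1 without ZT10 replicate 2. Tat also counts in the glucose, amino acid and hepatocyte lists, and Per1 in the core clock, so these counts are not separate. Fkbp5 was at 26.8 and 26.3 CPM at ZT2, 36.2 and 29.5 at ZT6, 38.1 and 37.2 at ZT10, 219 and 158 at ZT14, 49.5 and 53.8 at ZT18 and 27.5 and 36.5 at ZT22, highest at ZT14 (amplitude 1.24 ± 0.22 log2, peak at ZT 14.3 ± 0.673 h, adjusted p = 0.00365), and Tsc22d3 (GILZ) peaked at ZT 16.8 (amplitude 1.01 ± 0.15, adjusted p = 0.0030). In amino acid and urea metabolism 6 of 18 passed, beside the same 13.4%.

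Interferon and antigen presentation was the only list of more than 3 rhythmic members in which all peaked in the light, with 6 of 24. Among all genes tested 13.4% were rhythmic, and 6.95% were rhythmic with a peak in the light. Tap1, which pumps peptides for presentation, was at 23.6 and 26.7 CPM at ZT2, 24.3 and 34.5 at ZT6, 29.5 and 22.7 at ZT10, 12.8 and 13.9 at ZT14, 14.7 and 12.8 at ZT18 and 17.9 and 17.99 at ZT22 (amplitude 0.58 ± 0.08 log2, peak at ZT 5.32 ± 0.515 h, adjusted p = 0.00117). All light libraries lay above all dark ones. Usp18, an inhibitor of interferon signalling, peaked at ZT 7.23 (amplitude 0.62 ± 0.09, adjusted p = 0.00130), and Psmb9, an immunoproteasome subunit, at ZT 7.08 (amplitude 0.47 ± 0.09, adjusted p = 0.0115). The other 3, Rsad2, Ifi47 and Ifit1, peaked at ZT 0.901, ZT 1.22 and ZT 5.36. Irf7, their regulator, did not pass (adjusted p = 0.365). Of the markers of immune cells 0 of 13 Kupffer cell, 0 of 10 T and NK cell, 0 of 3 neutrophil and 1 of 7 B and plasma cell genes were rhythmic by edgeR. At an unadjusted p under 0.05 these counts were 0, 2, 1 and 4, against 4891 of 17099 over all genes tested. DESeq2 called 0, 2, 0 and 2, against 20.1% of all genes. The B and plasma cell count was near the 13.4% of all genes, and counts from lists this small say little of their members. The summed level of the Kupffer list was 348 to 484 CPM in light and 307 to 508 CPM in dark libraries, and its part in these rhythms was not tested.

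Of 18 endoplasmic reticulum stress genes 11 were rhythmic, 5 with a peak in the window around ZT22 and 4 in the next window around ZT2. Calr, a chaperone of the reticulum, and 4 others peaked in the light (Calr at ZT 2.15, adjusted p = 0.00799), and Atf4, Manf and 4 others in the dark. The counts, beside 13.4% of all genes tested, were 5 of 19 for ribosome biogenesis, 3 of 11 for growth hormone and STAT5, 3 of 16 for proliferation, 2 of 13 for iron handling, 1 of 18 for acute phase, 1 of 23 for male-biased and 1 of 15 for female-biased genes. Those of proliferation and iron handling were near the share of all genes. Without ZT6 replicate 2 the count for ribosome biogenesis was 10 of 19 and for acute phase 5 of 18. In the iron list Tfrc, the transferrin receptor, was at 44.8 and 75.2 CPM at ZT2, 18.4 and 12.7 at ZT6, 39.0 and 30.2 at ZT10, 61.1 and 44.1 at ZT14, 75.9 and 77.4 at ZT18 and 59.1 and 46.8 at ZT22 (amplitude 0.85, peak at ZT 19.3, adjusted p = 0.0252) and did not pass without 4 of the 12 libraries in turn (adjusted p = 0.0549 to 0.0732). For markers of resident and foreign cell types, counts were near the share of all genes or came from small lists, and do not show the markers to be flat. Median amplitudes of these lists ran from 0.12 (hepatocyte) to 0.51 (adipocyte), against 0.21 over all genes tested. The counts were 1 of 11 hepatocyte (Tat, 0 without ZT6 replicate 2), 1 of 8 sinusoidal endothelium, 1 of 9 stellate cell, 0 of 7 cholangiocyte, 0 of 3 pancreas, 0 of 6 adipocyte, 0 of 2 muscle and 0 of 5 erythroid genes. The 5 lists at 0 held 2, 1, 0, 0 and 0 genes at an unadjusted p under 0.05, against 4891 of 17099 over all genes tested. DESeq2 called 1, 0, 0, 0 and 0, against 20.1% of all genes. Neither the 4 sex chromosome genes nor the 2 ribosomal RNA remnants tested passed, with 0 at an unadjusted p under 0.05 and 0 by DESeq2.

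**Figure D3:**
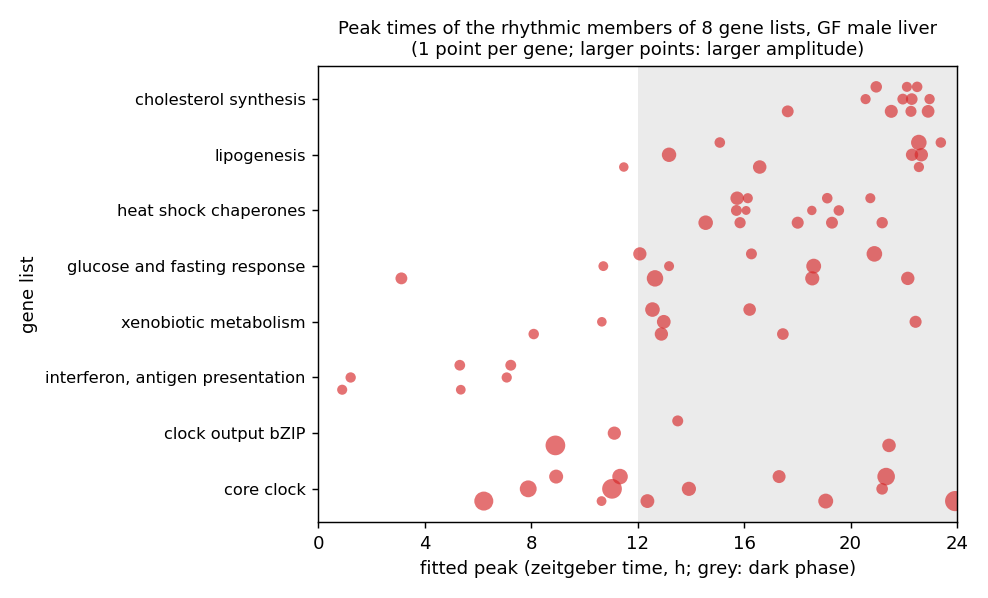
Fitted peak (x axis, zeitgeber time in h) of each rhythmic member of 8 gene lists in GF male liver (1 point per gene, larger for larger amplitude). The 13 heat shock chaperones and 11 cholesterol synthesis genes lie in the dark phase and the 6 interferon genes in the light.

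The mean over the 6 dark libraries differed from that over the 6 light libraries for 1087 of 17099 genes (6.36%), 501 higher in the dark (2.93%) and 586 lower (3.43%), by a contrast of the 3 dark against the 3 light ZT. Of these, 939 were also rhythmic and 148 were not, while 1345 rhythmic genes did not pass this contrast. All dark libraries lay above all light ones for 72 genes (0.421%) and below them for 287 (1.68%), of which 59 and 176 passed. Overlap was judged on CPM, with library size as the only scaling, while the contrast used TMM scaling. The balance of 72 and 287 under TMM scaling was not tested. The count depended on single libraries: it was 3187 without ZT6 replicate 1 and 1675 without ZT6 replicate 2, and 653 without ZT2 replicate 2. It was 525 and 493 without either library of ZT10, 471 and 473 of ZT14, 527 and 398 of ZT18, and 630 without ZT22 replicate 2. A plain comparison of 6 against 6 libraries, in which the differences between ZT of a phase count as error, called 175 genes. Scaling by library size alone left 29.3% of 1201 calls higher in the dark, against 46.1% with TMM scaling. It moved the median over all genes from -0.01 to -0.07 log2, and the balance of higher and lower calls moved with it.

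Tsku had the largest dark minus light difference of the named genes, with lowest 6.06, median 15.0 and highest 72.0 CPM in the light and lowest 54.6, median 152 and highest 202 CPM in the dark (dark minus light 2.90 ± 0.14 log2, adjusted p = 2.43e-06). Cdkn1a had lowest 0.336, median 0.527 and highest 1.39 CPM in the light and lowest 1.76, median 4.498 and highest 5.80 CPM in the dark (dark minus light 2.52 ± 0.15 log2, adjusted p = 9.66e-06). All of its dark libraries lay above the light ones. Ppp1r3b and Cry1, described above, also did not overlap (dark minus light 2.21 ± 0.20 and 2.18 ± 0.13 log2). Arntl (2.35 ± 0.12) overlapped, since its ZT2 libraries were as high as those of the dark. Cml5, an acetyltransferase-like gene with close paralogs, had lowest 1.75, median 5.51 and highest 8.31 CPM in the light and lowest 10.1, median 17.6 and highest 22.5 CPM in the dark (dark minus light 2.04 ± 0.14 log2, adjusted p = 2.12e-05). Lingo4 (dark minus light 1.93 ± 0.16 log2, adjusted p = 9.24e-05), Cyp7a1 (dark minus light 1.76 ± 0.25 log2, adjusted p = 0.00267) and Pcp4l1 (dark minus light 1.69 ± 0.23 log2, adjusted p = 0.00196) followed. Among these 3 only Pcp4l1, with lowest 0.856, median 1.5 and highest 2.42 CPM in the light and lowest 3.32, median 5.03 and highest 8.45 CPM in the dark, did not overlap.

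The genes highest in the light were led by Nr1d1, 19.4-fold higher than in the dark (dark minus light -4.28 ± 0.21 log2, adjusted p = 2.43e-06), and by Rgs16 (dark minus light -3.52 ± 0.51 log2, adjusted p = 0.00280) and Dbp (dark minus light -3.04 ± 0.12 log2, adjusted p = 4.61e-07). Bhlhe41 (dark minus light -2.24 ± 0.22 log2, adjusted p = 0.000282) and Trib3 (dark minus light -2.23 ± 0.19 log2, adjusted p = 8.44e-05) followed. Klhdc7a had lowest 26.6, median 40.2 and highest 67.0 CPM in the light and lowest 8.95, median 12.1 and highest 15.0 CPM in the dark (dark minus light -1.77 ± 0.11 log2, adjusted p = 1.13e-05). Junb, a subunit of the AP-1 factor, had lowest 19.5, median 28.8 and highest 44.1 CPM in the light and lowest 6.41, median 9.05 and highest 14.8 CPM in the dark (dark minus light -1.51 ± 0.13 log2, adjusted p = 9.24e-05). For both, and for Clec2h (dark minus light -1.77 ± 0.11 log2, adjusted p = 9.66e-06), every light library lay above every dark one. Erbb4, a receptor tyrosine kinase (dark minus light -1.39 ± 0.11 log2, adjusted p = 6.44e-05), and Arrdc3, an arrestin-like gene (dark minus light -1.39 ± 0.20 log2, adjusted p = 0.00229), overlapped between phases.

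Among the lists, heat shock chaperones stood at 15 of 18 higher in the dark and 0 lower, against 2.93% and 3.43% of all genes, with a median dark minus light of 0.57 log2 against -0.01 over all genes tested. The count was 15 without ZT6 replicate 2. Hsp90aa1 had lowest 62.1, median 87.4 and highest 142 CPM in the light and lowest 110.1, median 185 and highest 273 CPM in the dark (dark minus light 1.11 ± 0.14 log2, adjusted p = 0.00144), and Hsph1 lowest 12.7, median 21.7 and highest 41.2 CPM in the light and lowest 27.0, median 57.1 and highest 70.2 CPM in the dark (dark minus light 1.15 ± 0.15 log2, adjusted p = 0.00180). In the interferon list 0 genes were higher and 4 lower, with a median of -0.23 and Tap1 first (dark minus light -0.79 ± 0.11 log2, adjusted p = 0.00187). Glucose genes gave 6 higher and 1 lower (5 and 2 without ZT6 replicate 2), xenobiotic genes 5 and 1, glucocorticoid targets 5 and 0 (3 and 0 without ZT6 replicate 2), amino acid genes 4 and 0, and the core clock 5 and 3. Tsc22d3 (dark minus light 1.39 ± 0.11 log2, adjusted p = 4.42e-05) had the lowest adjusted p of the glucocorticoid targets, and its dark libraries did not overlap the light ones. Cholesterol synthesis, with fitted peaks close to the end of the dark phase, gave 2 and 0 (3 and 1 without ZT6 replicate 2). Hepatocyte markers gave 2 higher of 11 (1 without ZT6 replicate 2), with summed levels of 127789 to 160677 CPM in light and 140776 to 154273 CPM in dark libraries. Their part in the differences was not tested.

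**Figure D4:**
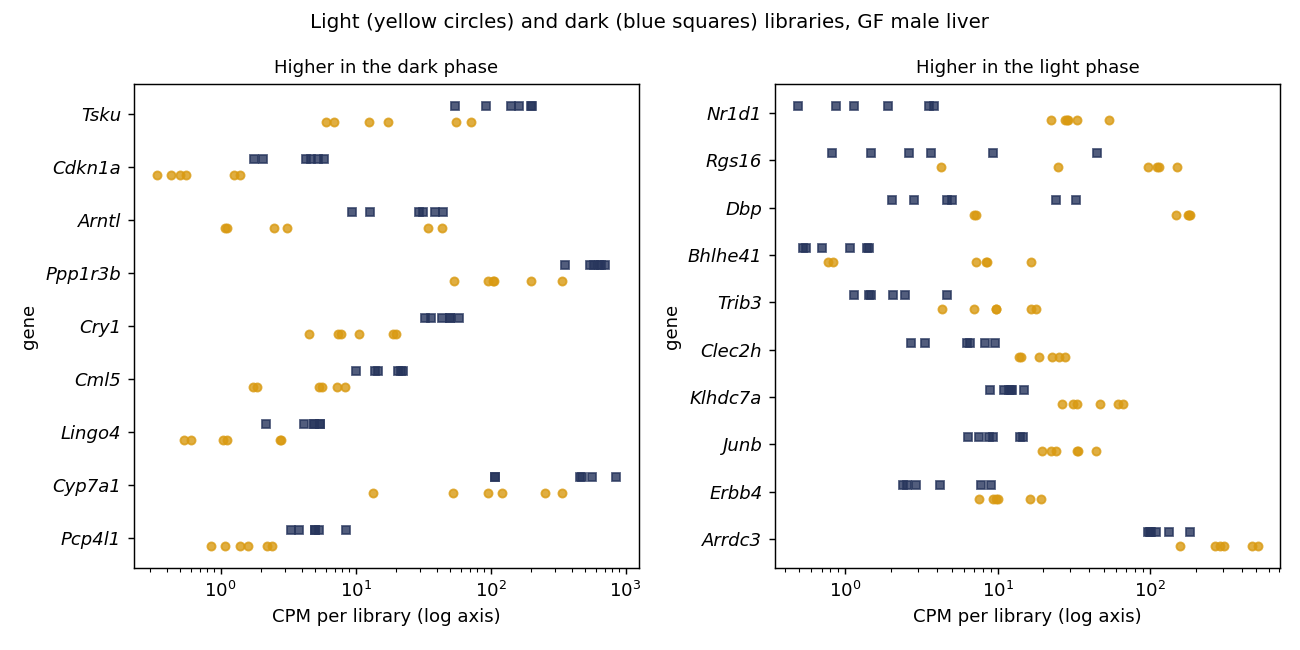
CPM per library (log axis) of 9 genes with high and 10 with low dark minus light differences in GF males, with 6 light libraries as yellow circles and 6 dark libraries as blue squares. For Nr1d1 the dark libraries reach 3.84 CPM and the light libraries start at 22.5 CPM.

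In convR males, tested in the same way, 1208 of 17034 genes (7.09%) were rhythmic. Of the genes tested in all fits, 578 were rhythmic in both groups, 25.5% of those rhythmic in GF and 48.2% of those rhythmic in convR males. Being called in 1 group and not in the other is no test of a difference. The difference in daily course was tested by the interaction of the rhythm terms with status in the 24 male libraries, and 22 of 17550 genes passed (0.125%). In 18 of the 22 the fitted amplitude was larger in GF males. Without 1 GF library the count ran from 5 to 35. It was 13 and 5 without replicates 1 and 2 of ZT18, and 35 without ZT22 replicate 2. DESeq2 called 300 genes.

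Cyp7a1 differed most in amplitude among the named genes. In convR males it was at 222 and 509 CPM at ZT2, 253 and 157 at ZT6, 172 and 132 at ZT10, 370.1 and 281 at ZT14, 315 and 333 at ZT18 and 154 and 111 at ZT22 and had no rhythm that passed (amplitude 0.20 ± 0.24, peak at ZT 19.1, adjusted p = 0.850), against an amplitude of 2.07 in GF males (interaction adjusted p = 0.0230). The groups differed most at ZT2, where both GF libraries lay below both convR libraries, and at ZT14, where both lay above. The interaction did not pass without ZT14 replicate 2 or ZT18 replicate 2 (adjusted p = 0.0534 to 0.0648). Ahctf1, which encodes the nucleoporin ELYS, had the lowest adjusted p of the named genes (0.00426). It was at 129.9 and 152 CPM at ZT2, 79.6 and 73.3 at ZT6, 84.8 and 76.8 at ZT10, 143 and 143 at ZT14, 198 and 189 at ZT18 and 189 and 173 at ZT22 in GF males and at 112 and 142 CPM at ZT2, 101 and 116 at ZT6, 123 and 126 at ZT10, 138 and 136 at ZT14, 155 and 143 at ZT18 and 127 and 124 at ZT22 in convR males, and passed without each library in turn. Crybg3 had a like course (0.81 in GF and 0.20 in convR males, adjusted p = 0.0183).

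Other genes differed in when they were highest. Gclc, the catalytic subunit of the enzyme that starts glutathione synthesis, was at 357 and 381 CPM at ZT2, 261 and 233 at ZT6, 194 and 196 at ZT10, 139 and 155 at ZT14, 299.5 and 308 at ZT18 and 553 and 348 at ZT22 in GF males, with a peak at ZT 23.4. In convR males it was at 185 and 308 CPM at ZT2, 298 and 296 at ZT6, 326 and 445 at ZT10, 281 and 231 at ZT14, 298 and 251 at ZT18 and 269 and 269 at ZT22, highest at ZT10, where GF males were near their lowest level (adjusted p = 0.0183). Ugdh, which makes the sugar donor for glucuronidation, moved the same way, from a fitted peak at ZT 9.61 in convR to ZT 23.4 in GF males (adjusted p = 0.0230), though not without ZT18 replicate 2 (adjusted p = 0.0534). Ikbkg (NEMO), a subunit of the kinase that activates NF-kappa B, peaked at ZT 20.6 in GF males (amplitude 0.50 ± 0.06) and had no rhythm that passed in convR males (amplitude 0.14, interaction adjusted p = 0.00733). Tlcd2 was at 114 and 132 CPM at ZT2, 109 and 104 at ZT6, 102 and 106 at ZT10, 84.3 and 116 at ZT14, 135 and 126 at ZT18 and 160.2 and 144 at ZT22 in GF and at 131 and 154 CPM at ZT2, 187 and 216 at ZT6, 149.8 and 122 at ZT10, 100.1 and 96.5 at ZT14, 73.5 and 92.3 at ZT18 and 149 and 130.2 at ZT22 in convR males (adjusted p = 0.0251), though it did not pass without ZT18 replicate 1 or ZT18 replicate 2 (adjusted p = 0.0665 to 0.0669). Cml5 (adjusted p = 0.0230), Ric8 (0.0183) and Zbtb48 (0.0230) had larger amplitudes in GF males, and lost the call without ZT18 replicate 2 (adjusted p = 0.0590, 0.0534 and 0.0590). In the glucose list 1 gene passed, Pdk4, with a peak at ZT 20.9 in GF and ZT 0.219 in convR males (adjusted p = 0.0415).

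**Figure D5:**
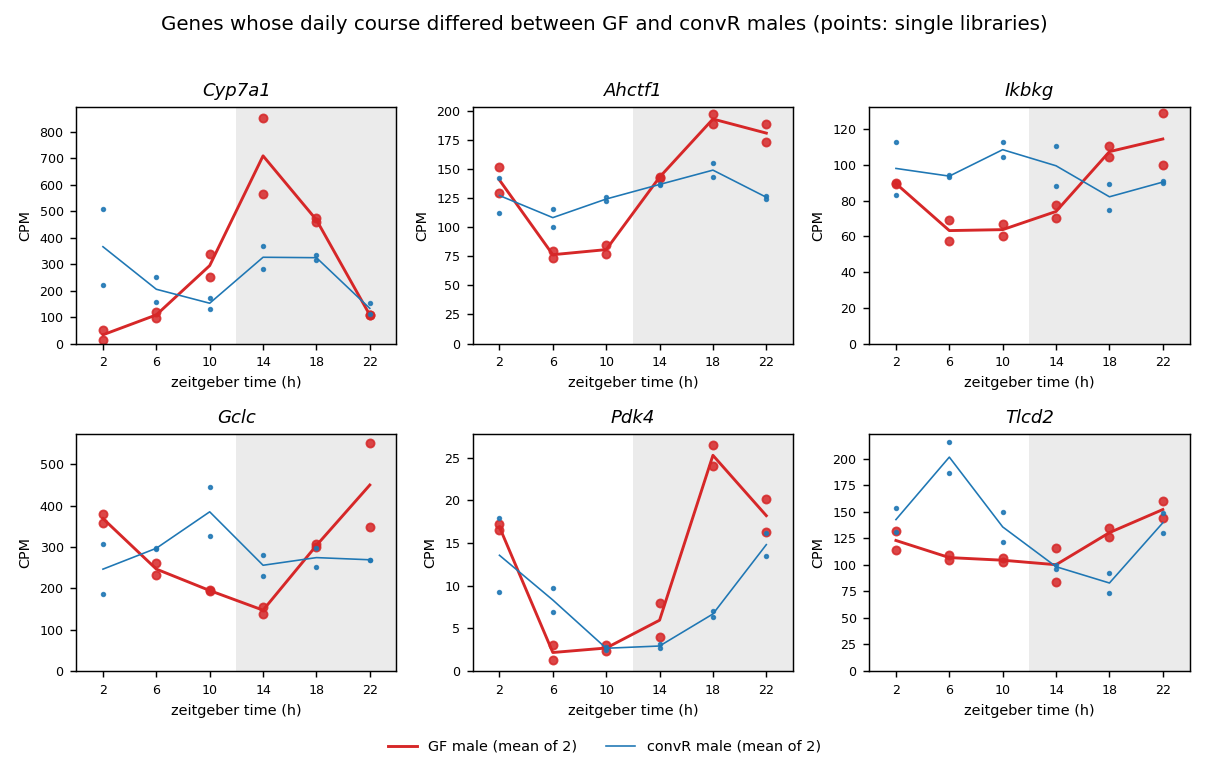
CPM against zeitgeber time (h, grey for the dark phase) in GF males (red) and convR males (blue) for 6 genes whose rhythm differed between them. Points are single libraries and lines join means of 2. Cyp7a1 runs from 33.0 CPM at ZT2 to 708 CPM at ZT14 in GF males (means of 2).

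Among the 22 genes were 4 of 57 genes with names of the Hist clusters, against 0.125% of all genes tested. This group was singled out after its values were seen, and its names include a non-coding gene and a pseudogene. Hist1h1d peaked at ZT 6.25 in GF males (amplitude 0.98) and at ZT 20.9 in convR males (amplitude 0.74, interaction adjusted p = 0.00426). Hist1h1e peaked at ZT 5.73 in GF males (interaction adjusted p = 0.0183). In convR males its rhythm did not pass (fitted peak at ZT 20.2, adjusted p = 0.0837). For both genes ZT6 replicate 2 was the highest GF male library, at 27.1 CPM for Hist1h1d and 103 for Hist1h1e. In ZT6 replicate 1 they were at 10.8 and 66.8 CPM. Hist1h4f peaked at ZT 7.80 in GF and ZT 22.6 in convR males (interaction adjusted p = 0.0230). Hist1h1c also passed the interaction (adjusted p = 0.0441), though its rhythm in GF males did not pass (adjusted p = 0.228). Hist2h3c1 and Hist2h3c2 were rhythmic with a dark peak in both male groups and did not pass the interaction (adjusted p = 0.473 and 0.804). Reads of the near-identical histone genes are uncertain between members.

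Of the core clock genes 0 passed the interaction by edgeR (8 of 15 at an unadjusted p under 0.05, 1 by DESeq2). Over all genes tested, 1967 of 17550 were at an unadjusted p under 0.05. Among the 12 core clock genes rhythmic in both groups, the fitted peak was earlier in GF males for 9 and the amplitude larger for 10. The values for Arntl were an amplitude of 2.56 ± 0.27 with a peak at ZT 21.3 in GF males and amplitude 1.53 ± 0.30, peak at ZT 23.2, adjusted p = 0.0444 in convR males. Those for Nr1d1 were 3.09 ± 0.23 at ZT 6.22 and amplitude 1.90 ± 0.20, peak at ZT 5.68, adjusted p = 0.00135. Over all 578 genes rhythmic in both groups the median peak differed by -0.85 h (quartiles -1.80 and 0.39 h, negative values being earlier in GF males), and the median amplitudes were 0.54 and 0.47. Cholesterol synthesis genes stood further apart in their fitted peaks: all 7 rhythmic in both groups peaked earlier in GF males, with differences of -3.67 to -5.45 h. Hmgcs1 in convR males had amplitude 1.33 ± 0.20, peak at ZT 2.73, adjusted p = 0.00973, and the interaction gave adjusted p = 0.145. Of the 26 genes 0 passed the interaction by edgeR, 21 were at an unadjusted p under 0.05, beside the same 1967 of 17550. DESeq2 called 10 of them, against 1.71% of all genes.

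In GF females 750 of 16096 genes (4.66%) were rhythmic, and 494 genes were rhythmic in both sexes, 21.9% of those in GF males and 66.7% of those in GF females. The fitted peak came earlier in males, with a median difference of -2.08 h over the 494 genes (quartiles -2.85 and -1.28 h). Sex coincides with the count table, so the sexes and the tables cannot be told apart. The interaction with sex in the 24 GF libraries passed for 11 of 17310 genes (0.0635%), with counts of 0 to 25 when 1 GF male library was left out. It was 0 without ZT6 or ZT14 replicate 2 or ZT10 or ZT18 replicate 1, 3 and 5 without ZT10 replicate 2 and ZT14 replicate 1, 4 without ZT22 replicate 1, 7 without ZT2 replicate 2 and 25 without ZT2 replicate 1. DESeq2 called 114 genes.

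Several of the 11 belong to the clock and its output. Dbp in GF females was at 0.941 and 1.26 CPM at ZT2, 4.57 and 2.07 at ZT6, 175 and 124 at ZT10, 99.3 and 141 at ZT14, 14.2 and 6.32 at ZT18 and 5.31 and 4.03 at ZT22. Male libraries at ZT6 were at 149 and 179 CPM, female libraries of the same ZT at 4.57 and 2.07. The amplitudes were close (3.38 and 3.48) and the peaks lay at ZT 8.91 and ZT 12.9 (adjusted p = 0.0297). Gm129 (Ciart) differed alike (peaks at ZT 11.04 and ZT 14.2, adjusted p = 0.0297), as did Nr1d2 (ZT 8.94 and ZT 12.6, adjusted p = 0.0466). All 11 core clock genes rhythmic in both sexes had an earlier fitted peak in males, with differences of -1.54 to -4.04 h. Of the 15 genes 2 passed the interaction, and 13 were at an unadjusted p under 0.05, against 1082 of 17310 over all genes tested.

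Outside the clock, Klf10, a zinc finger repressor, was at 10.9 and 12.4 CPM at ZT2, 28.4 and 51.0 at ZT6, 33.0 and 29.7 at ZT10, 20.3 and 15.0 at ZT14, 8.04 and 7.47 at ZT18 and 7.87 and 13.4 at ZT22 in males and at 11.8 and 10.5 CPM at ZT2, 7.22 and 10.2 at ZT6, 31.8 and 23.7 at ZT10, 62.6 and 54.3 at ZT14, 26.0 and 12.8 at ZT18 and 17.0 and 12.1 at ZT22 in females (adjusted p = 0.0314). Slc2a5, the fructose transporter, peaked at ZT 9.17 in males and ZT 13.7 in females (adjusted p = 0.0314). The pairs for Pcsk4, a proprotein convertase, were ZT 10.7 and ZT 13.6 (adjusted p = 0.0297), for Ak4, a mitochondrial adenylate kinase, ZT 13.0 and ZT 16.6 (0.0414), and for Lonrf1 ZT 12.3 and ZT 16.2 (0.0466). Susd4, a regulator of complement, was not rhythmic in males (adjusted p = 0.0976) at 20.9 to 57.0 CPM and was at 0.649 to 3.51 CPM in females (interaction adjusted p = 0.0314). Cdkn1a (0.0551) and the glucose-6-phosphate transporter Slc37a4 (0.0596) came next and did not pass. None of the 8 named calls passed in all 12 fits that left out 1 male library. In the cholesterol list 1 gene was rhythmic in both sexes. Of its 26 genes 0 passed the interaction by edgeR and 0 by DESeq2. At an unadjusted p under 0.05 the count was 0, against 1082 of 17310 over all genes tested.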

How the data were processed

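Liver RNA was sequenced from 12 GF male libraries, with 12 convR male and 12 GF female libraries for comparison. Libraries were made from 250 ng of total RNA with a stranded kit after ribosomal RNA removal, per the labels' protocols, and reads were aligned to mm10 with STAR 2.4.0i, per the submitters' processing notes. The authors deposited whole-number counts per gene, while the counting tool, its annotation and its strand setting were not given in the sources used here. Overlapping and near-identical genes are therefore uncertain. Of 38087 genes, 36308 matched GENCODE M21, from which positions were taken.

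Counts were scaled by TMM and tested with edgeR 4.0.16 (limma 3.58.1, R 4.3.3) after filterByExpr with the ZT as groups (minimum count 10, minimum total 15). Rhythms were tested on joint 24 h cosine and sine terms. The light and dark phases were compared by a contrast of 6 ZT means. Changes of rhythm were tested as interactions with status or sex, which were 2 separate fits of 24 libraries. Errors are SE, p-values are two-sided and adjusted by Benjamini-Hochberg over all genes tested, and the threshold was 0.05. Data were simulated on 17099 genes, with changes placed only in genes of an average log2 CPM above 1 and with no deviating library. At each size 100 genes were changed, as exact 24 h curves or as equal steps between the phases, and libraries varied independently. The figures therefore do not cover courses of other shapes or deviations shared between libraries. The rhythm test recovered 75% of amplitudes of 0.5 and 100% of amplitudes of 1 with 8 false calls. The phase test recovered 95% of differences of 1 and 100% of differences of 2 (log2) with 15 false calls.

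Genes were named by rule: the 4 largest amplitudes in each peak window, the 10 highest and 10 lowest phase differences with 1 direction in libraries numbered 1 and 2, and the 10 lowest adjusted p of each change of rhythm, all with an average log2 CPM of at least 1, plus members of the gene lists. Predicted genes and small RNA genes were counted and not named. The members and lists were chosen with earlier results of these data known. Replicate numbers were checked for pairing across ZT. In 15 pairs of ZT the deviations of same-numbered libraries correlated at r = 0.0012 to 0.306 (median 0.085), with 6 over 0.1. All were above 0 and most were low. The numbers were not used as pairs in the main fits, and counts with a replicate block are given below. Alternatives were other scalings, no filter, DESeq2 1.42.0, robust dispersions, a replicate block, other model forms and leaving out libraries. Values of some genes that these rules would name are not reported here.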

Additional observations from a re-analysis of the deposited data

Results flagged for a closer look

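Values that stood apart from their group by Dixon's criterion are given first. Chance alone marks about 1 in 20 groups of values drawn from 1 normal distribution. The groups here pool libraries of different ZT, and the genes were chosen for large phase differences, so that rate does not carry over to them. The share of ribosomal RNA remnants in ZT6 replicate 2, 5.23%, lay far above the other light libraries. Nr1d1 was at 54.1 CPM in ZT6 replicate 1, above the next light library at 33.4 CPM. Rgs16 was at 45.2 CPM in ZT14 replicate 1, above the next dark library at 9.30 CPM.

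The daily course differed between GF and convR males, by edgeR's interaction test with Benjamini-Hochberg adjustment, for Ahctf1 (adjusted p = 0.00426), Ikbkg (0.00733), Crybg3, Ric8 and Gclc (0.0183 each), Ugdh, Cyp7a1, Cml5 and Zbtb48 (0.0230 each) and Tlcd2 (0.0251). It differed between GF males and GF females for Dbp and Pcsk4 (0.0297 each), Susd4, Klf10 and Slc2a5 (0.0314 each), Ak4 (0.0414), and Lonrf1 and Nr1d2 (0.0466 each).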

How the results depend on the processing

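The 4 counts of genes depended on the settings, and the causes were not tested. For the 24 h rhythm (2284 genes), no filter on low counts gave 3487, DESeq2 3435, the F test over 6 ZT levels 1233, and leaving out 1 library 1496 to 3098. For light against dark (1087), no filter gave 1852, the 2-group fit 175, the fit in 24 male libraries 2042, and leaving out 1 library 398 to 3187. For the change against convR males (22), no filter gave 1014, DESeq2 300, and leaving out 1 GF male library 5 to 35. For the change against GF females (11), no filter gave 754, DESeq2 114, library size as the only scaling 6, robust dispersions 6, and leaving out 1 library 0 to 25. Leaving out all libraries numbered 1 or 2 left 67 or 127 rhythmic genes, 0 or 0 in the 2-group light and dark fit (chosen after seeing the data, since the fit by ZT then has no residual degrees of freedom), 0 or 0 against convR males and 0 or 16 against GF females. With the replicate block, a fit in which the replicate number was a term, the counts were 2288, 1126, 23 and 12. Library size as the only scaling left 29.3% of the light and dark calls higher in the dark, against 46.1%. No value of a single gene changed sign where it passed the threshold in either of the fits compared, while several dark minus light values near 0 that did not pass did change sign. Of the calls examined gene by gene, 76 of 96 rhythms, 46 of 57 phase differences, 4 of 10 changes against convR males and 0 of 8 against GF females passed in all 12 fits that left out 1 library. With 2 libraries per ZT, small amplitudes are the ones most often missed in simulated data.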
